A study of Mus musculus with 8 samples.

Results

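Tent5c, the gene of a non-canonical poly(A) polymerase, and the genes of the cytoplasmic poly(A)-binding proteins were followed in whole mouse testis by Nanopore direct RNA sequencing, in which every read is 1 RNA molecule read from its 3′ end and carries its own poly(A) tail length. The members were the transcripts whose gene symbol, written in lower case in the files, was tent5c or started with pabpc, such as pabpc1. The rule found 4 of the 2783 transcripts of the table, 1 each for Tent5c, Pabpc1, Pabpc2 and Pabpc6, which held 1847 of the 621202 reads. The mice were adult males on a C57BL/6 background. They were either Tent5c wt/wt (wt) or homozygous for an allele whose protein lacks catalytic activity, Tent5c dcat/dcat (dcat). Each mouse was injected once, intraperitoneally, with 20 mg/kg busulfan or with its vehicle, equal parts of DMSO and water, and the testes were collected 4 weeks later. Busulfan is an alkylating agent that depletes germ cells, and it was given to the whole animal, so the treatment was not limited to 1 cell type. There were 4 groups of 2 mice (wt vehicle, dcat vehicle, wt busulfan and dcat busulfan) and 8 samples, called libraries here, with no pooling of animals.

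TENT5C adds adenosines to the 3′ end of selected cytoplasmic mRNAs and belongs to the TENT5 family of poly(A) polymerases. Cytoplasmic poly(A)-binding proteins coat the tail, contact the translation initiation factors bound at the cap and recruit or hold off the deadenylases that shorten the tail. Pabpc1 encodes the widely expressed form. Pabpc2 is an intronless copy of it transcribed in male germ cells, and Pabpc6 is a further intronless Pabpc gene. Spermatids make many mRNAs early, store them and translate them after transcription has stopped, so tail length and tail-binding proteins have long been studied in the testis.

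Tent5c (ENSMUST00000061455) lies on GRCm38 chromosome 3, minus strand, from 100468057 to 100489324, in 2 exons, with a coding length of 1176 nt and a 3′ UTR of 4206 nt. Pabpc1 (ENSMUST00000001809) lies on chromosome 15, minus strand, from 36595661 to 36608973, in 15 exons, with a coding length of 1911 nt and a 3′ UTR of 439 nt. The tails measured here start at the 3′ ends of the RNA molecules. Whether these ends are the annotated ones was not checked. Shown for the 2 members with at least 10 reads in every library are 30 bases of the 3′ UTR, on the GENCODE annotation of the GRCm38 build, written in the sense of the mRNA with the polyadenylation signal in capitals.
Tent5c, chr3:100468065-100468094, minus strand: agtgtgagaAATAAAggaatatttaaaagt
Pabpc1, chr15:36595661-36595690, minus strand: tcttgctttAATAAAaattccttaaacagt
The annotated 3′ end followed the signal after 23 bases in Tent5c, 15 in Pabpc1 and 14 in Pabpc2. In Pabpc6 neither AATAAA nor ATTAAA was found in the last 40 bases. Searched on the sense strand only, AATAAA was in the last 40 bases of 63.0% of the 2738 transcripts of the table found in the annotation, and AATAAA or ATTAAA in that of 76.8%. The letters TTTTAT, a form of the cytoplasmic polyadenylation element, were in the last 100 bases of 10.2% of these transcripts and of none of the 4 members. Pabpc1 also carries an A-rich stretch in its 5′ UTR, which is known as a binding site of its own protein. The window of 30 bases richest in A had 22 A, spanned bases 105 to 134 of the 467 bases of the 5′ UTR and is shown with its A in capitals.
Pabpc1, chr15:36608840-36608869, minus strand: gAAAAAAcccAAAAAAAAtttAcAAAAAAA

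Pabpc2 (ENSMUST00000063219) lies on GRCm38 chromosome 18, plus strand, from 39773497 to 39776082, and Pabpc6 (ENSMUST00000057190) on chromosome 17, minus strand, from 9666495 to 9669717, each in 1 exon. The 3 Pabpc transcripts resemble each other, which bears on how reads could be assigned. The coding sequence of Pabpc1 was identical to that of Pabpc2 at 83.2% of aligned bases and to that of Pabpc6 at 83.4%, and that of Pabpc2 to that of Pabpc6 at 76.8%. The longest run shared without a mismatch was 37 nt for Pabpc1 and Pabpc2, 42 nt for Pabpc1 and Pabpc6 and 27 nt for Pabpc2 and Pabpc6. Long reads cross many differing bases, but short 3′ fragments or reads with many errors could be split between these copies, so the values of Pabpc2 and Pabpc6, which have far fewer reads than Pabpc1, carry that uncertainty.

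The libraries held between 29574 (dcat vehicle replicate 1) and 129074 reads (dcat vehicle replicate 2). In the dcat allele the transcript is still made, so the reads of Tent5c do not check the genotype labels. Markers of spermatids and of Leydig and other somatic cells moved with the treatment. The 12 late spermatid markers, all of them read in every group, summed to 107650 to 118953 CPM (reads scaled to a library of 1e6 reads) in wt mice and 94340 to 111866 in dcat mice given vehicle, against 9038 to 12337 in wt mice and 21616 to 38873 in dcat mice given busulfan. The 8 of 9 round spermatid markers in the table summed to 10343 to 12365 CPM in wt mice and 10989 to 11970 in dcat mice given vehicle, against 288 to 520 in wt mice and 1252 to 2823 in dcat mice given busulfan. The 8 of 9 Leydig cell markers in the table moved the other way. With vehicle they summed to 5489 to 5713.5 CPM in wt mice and 3711 to 6830 in dcat mice. With busulfan they summed to 43859 to 49235 in wt mice and 24126 to 28512 in dcat mice. The 6 of 12 Sertoli cell markers in the table rose too. With vehicle they summed to 2108 to 2523 CPM in wt and 2231 to 3956 in dcat. With busulfan they summed to 21763 to 21967.5 in wt and 16246 to 21925 in dcat. The sums of peritubular and macrophage markers rose in both genotypes, and that of erythroid markers in wt only. No late spermatid, round spermatid or Leydig marker in the table was at 0 in both libraries of a group. Spermatogonia and spermatocytes had only 1 marker each in the table, too few to describe these cells. The 1 of 6 spermatogonia markers in the table had 39.4 to 69.3 CPM in wt and 54.2 to 169 in dcat with vehicle. In the wt vehicle libraries 3 reads were 59.1 and 41.6 CPM, so these values rest on few reads. With busulfan the spermatogonia marker had 165 to 273 in wt and 211 to 610 in dcat. The 1 of 9 spermatocyte markers fell in wt, from 208 to 315 CPM with vehicle to 90.8 to 113 with busulfan. In dcat it overlapped, at 135 to 232 with vehicle and 97.6 to 228 with busulfan. The part of these shifts in the results below was not tested, and fewer cells of a type and less RNA per cell cannot be told apart in whole testis.

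Tent5c RNA fell after busulfan in wt mice and had the smallest fold change of the 4 members. It had 42 and 56 reads in wt mice and 22 and 115 in dcat mice given vehicle, against 18 and 31 in wt mice and 24 and 66 in dcat mice given busulfan. Scaled to CPM with TMM factors, the levels were 813 and 801 in wt mice and 730 and 919 in dcat mice given vehicle, against 236 and 292 in wt mice and 385 and 717 in dcat mice given busulfan. All 4 vehicle libraries lay above all 4 busulfan libraries. However, the highest busulfan library, dcat replicate 2 at 717, came close to the lowest vehicle library at 730. Such separation was not counted over all transcripts, here or for the other members. In wt mice the log2 fold change with busulfan was -1.60 ± 0.41 (SE, n = 2 mice per group), a 3.02-fold lower level, with an adjusted p of 0.00117 in edgeR. In dcat mice the change was -0.58 ± 0.38 and did not pass the threshold of 0.05 (adjusted p = 0.182). It passed with RLE scaling, at -0.81 and an adjusted p of 0.0397, and without dcat busulfan replicate 2, at -1.13 and an adjusted p of 0.0397. RLE scaling lowered the median log2 change of all transcripts in this comparison by 0.21, from 0.14 to -0.08.

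Counting error alone, pooled over both mice, put the vehicle to busulfan ratio of Tent5c CPM at 2.95 in wt (exact 95% interval 2.08 to 4.25) and at 1.52 in dcat (1.15 to 2.00). Such intervals cover counting error only, not the differences between mice. The difference between these 2 changes was tested as the interaction of genotype and treatment. It was 1.01 ± 0.56 on the log2 scale with an adjusted p of 0.399, so the smaller reduction in dcat was not distinguished from that in wt.

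**Figure D1:**
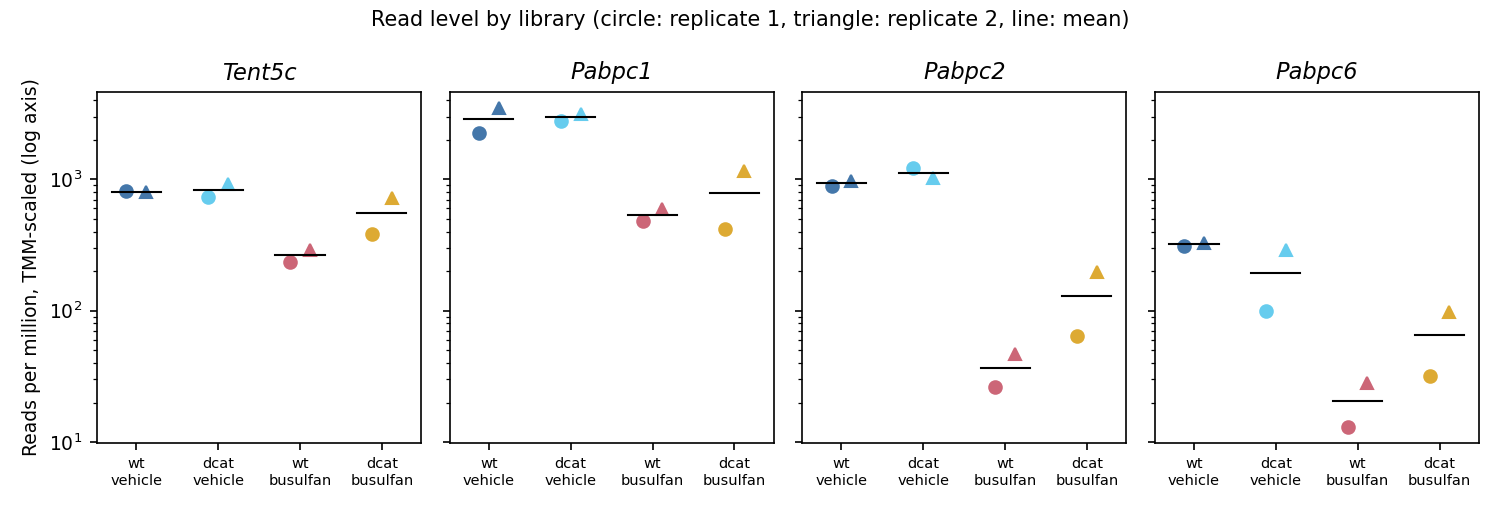
Level of Tent5c, Pabpc1, Pabpc2 and Pabpc6 in each of the 8 libraries, in TMM-scaled CPM on a log axis, with circles for replicate 1, triangles for replicate 2 and a line at the mean of the 2 libraries of a group. For each gene all 4 vehicle libraries lie above all 4 busulfan libraries. The gap is wide for Pabpc2 and very narrow for Tent5c (730 against 717) and Pabpc6 (99.6 against 97.8). The share of all transcripts that separated in this way was not counted. In edgeR 38.3% of all transcripts were called lower with busulfan in wt and 31.4% in dcat.

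The tails of Tent5c were shortened with busulfan in wt mice, and in dcat mice the estimate was of similar size without passing. Their mean length was 171 and 169 nt in wt mice and 145 and 174 nt in dcat mice given vehicle, against 140 and 133 nt in wt mice and 108 and 135 nt in dcat mice given busulfan. The 4 busulfan libraries lay below the 4 vehicle libraries, and dcat replicate 1 was the lower of its pair under each treatment, with 22 and 24 reads behind its means. The mean tail of all reads separated in the same way, at 111 to 115 nt with busulfan and 134 to 144 nt with vehicle. The share of transcripts whose mean tails separated was not counted. In wt mice the difference of Tent5c with busulfan was -33.3 ± 9.4 nt (limma, adjusted p = 0.0102). The call was lost without wt vehicle replicate 1 (-32.1 nt, adjusted p = 0.0591) and without wt busulfan replicate 2 (-29.7 nt, adjusted p = 0.0650). In dcat mice the difference was -37.7 ± 13.5 nt and did not pass (adjusted p = 0.0666). With the replicate number, which stands for the multiplexed library the 4 groups shared, as a block, the same difference passed at an adjusted p of 0.00616. It also passed without dcat vehicle replicate 1 (-52.0 nt, adjusted p = 0.0252) and without dcat busulfan replicate 2 (-51.0 nt, adjusted p = 0.00947). Within a multiplexed library the busulfan minus vehicle difference was -30.9 and -35.7 nt in wt and -36.7 and -38.6 nt in dcat. All 4 differences were thus negative. Over both genotypes together, the 4 busulfan libraries averaged 129 nt and the 4 vehicle libraries 165 nt (exact two-sided permutation test over libraries, p = 0.0286, the smallest p that 4 against 4 allows, or 0.0667 adjusted over the 14 measures tested this way, which misses 0.05). Exact permutation tests of 2 against 2 libraries cannot go below p = 0.333.

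Tails were shorter after busulfan over the testis transcripts as a whole. The median difference over the 527 transcripts tested in wt was -19.9 nt, and over the 441 tested in dcat -17.2 nt. When every library was centred on its own median tail, the wt difference of Tent5c was -10.1 nt and no longer passed (adjusted p = 0.472). In dcat mice the mean tail of Tent5c was set against the mean tail of all reads of the same library. Tent5c minus all reads was 10.7 nt in replicate 1 and 29.3 nt in replicate 2 with vehicle. With busulfan it was -2.49 and 20.5 nt, lower in both replicates, but the 2 treatments overlapped. This dcat difference was not tested. Among transcripts with at least 10 reads, the mean tail of Tent5c was longer than that of 87.2% and 83.7% of them in wt mice and 59.5% and 89.3% in dcat mice given vehicle, against 78.6% and 66.3% in wt mice and 30.2% and 64.7% in dcat mice given busulfan. Tent5c thus had its 3 highest ranks in vehicle libraries and its lowest in dcat busulfan replicate 1.

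The lengths of single Tent5c tails were compared next. Pooled over both mice, the lower and upper quartiles were 144 and 198 nt in wt mice and 143 and 195 nt in dcat mice given vehicle, against 98.9 and 163 nt in wt mice and 103 and 155 nt in dcat mice given busulfan. The 20-nt bin holding the most reads ran from 140 to 160 nt in both vehicle groups, from 120 to 140 nt in wt busulfan and from 100 to 120 nt in dcat busulfan. Tails of 120 to 210 nt made up 71.4% and 67.9% of reads in wt vehicle and 63.6% and 77.4% in dcat vehicle. With busulfan they were 44.4% and 61.3% in wt and 29.2% and 57.6% in dcat. Tails of 30 to 120 nt were 11.9% and 16.1% in wt mice and 27.3% and 8.70% in dcat mice given vehicle, against 33.3% and 35.5% in wt mice and 70.8% and 39.4% in dcat mice given busulfan. The libraries of the 2 treatments did not overlap in either window, and for both windows the exact permutation p of 4 against 4 libraries was 0.0286 (0.0667 adjusted over 14 measures). This separation depended on the limits of the windows. Tails of 30 to 100 nt were 18.2% in dcat vehicle replicate 1 and 13.6% in dcat busulfan replicate 2, an overlap. Tails of 100 to 250 nt overlapped too, at 77.3% and 84.8% in these libraries. The median tail of all reads of a library was 138 to 152 nt with vehicle and 94.3 to 103 nt with busulfan. The share of all reads in these windows was not counted. The Wilson 95% intervals of the Tent5c shares in single libraries were wide, for example 50.8% to 85.1% for the 70.8% of dcat busulfan replicate 1. Tails of 210 nt or longer were found in 7 of 42 and 9 of 56 reads in wt mice and in 2 of 22 and 16 of 115 in dcat mice given vehicle, against in 4 of 18 and 1 of 31 in wt mice and in 0 of 24 and 1 of 66 in dcat mice given busulfan.

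**Figure D2:**
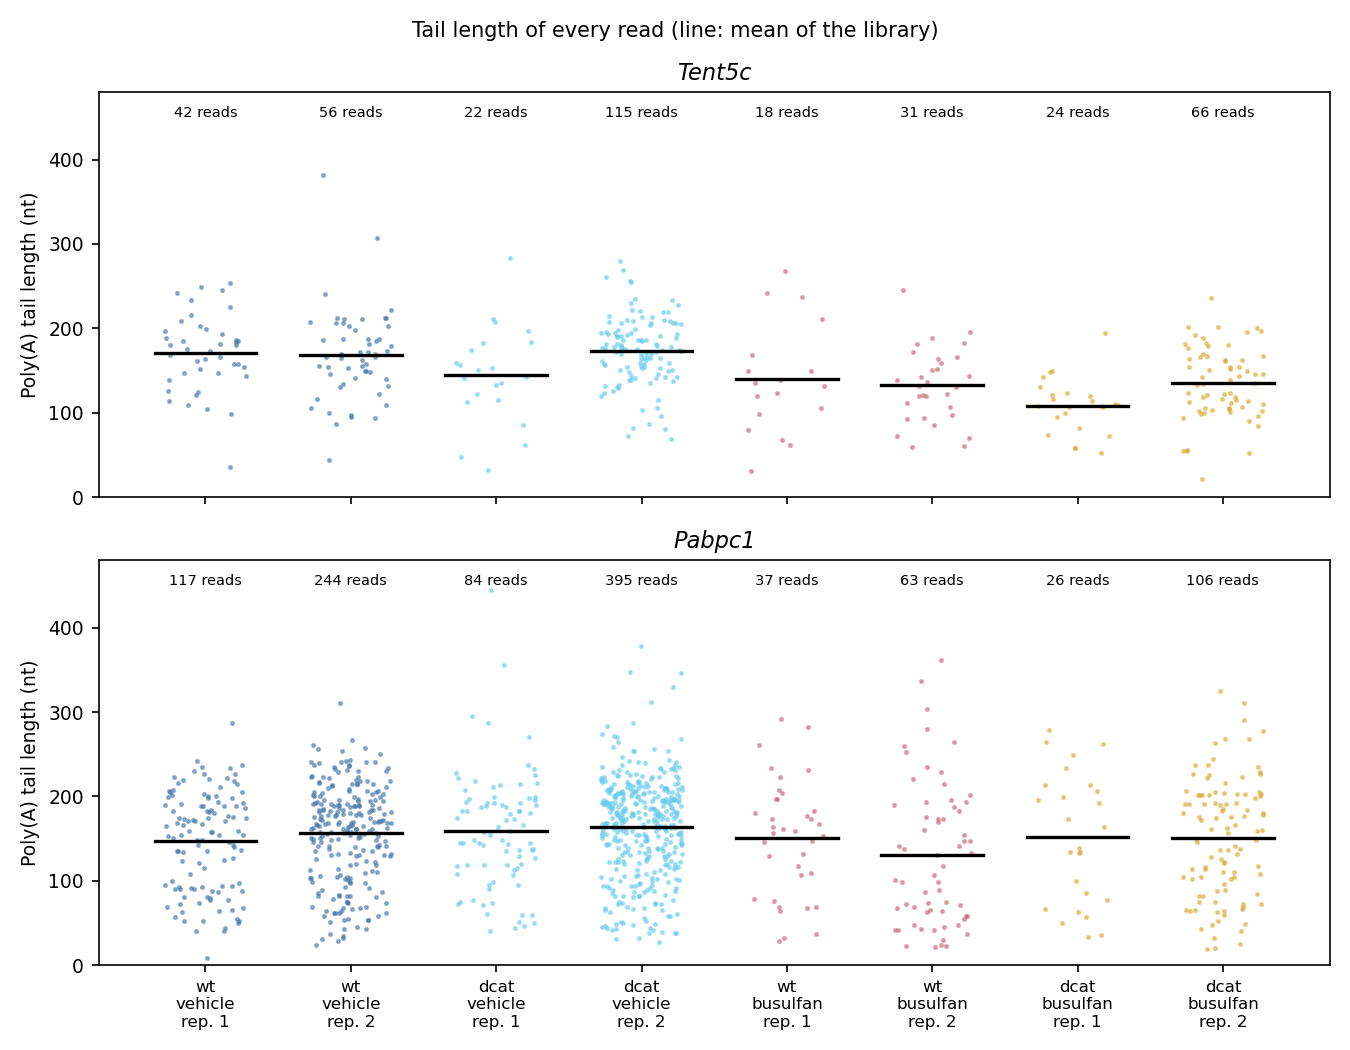
Poly(A) tail length in nt of every Tent5c read (top) and Pabpc1 read (bottom) in each library, with a line at the mean of the library and the number of reads above it. Tent5c tails gather around the mean, which is 145 to 174 nt with vehicle and 108 to 140 nt with busulfan, while Pabpc1 tails spread from under 30 nt to over 250 nt in all 4 groups.

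Pabpc1 RNA fell with busulfan in both genotypes, whereas no difference in its mean tail passed. It had 117 and 244 reads in wt mice and 84 and 395 in dcat mice given vehicle, against 37 and 63 in wt mice and 26 and 106 in dcat mice given busulfan. The TMM-scaled levels were 2266 and 3489 CPM in wt mice and 2788 and 3155 in dcat mice given vehicle, against 484 and 593 in wt mice and 417 and 1152 in dcat mice given busulfan. No busulfan library reached the level of any vehicle library. The log2 fold change was -2.41 ± 0.39 in wt (adjusted p = 1.16e-05), which is 5.32-fold lower, and -1.89 ± 0.38 in dcat (adjusted p = 0.000387), which is 3.72-fold lower. The size of the change rested in part on single libraries, with -1.79 in wt without wt vehicle replicate 2 and -2.83 and -1.37 in dcat without dcat busulfan replicate 2 and replicate 1, and each of these was still called. The interaction was 0.52 ± 0.54 (adjusted p = 0.745).

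The mean tail of Pabpc1 was 147 and 157 nt in wt mice and 159 and 164 nt in dcat mice given vehicle, against 151 and 131 nt in wt mice and 152 and 151 nt in dcat mice given busulfan. The lowest value was in wt busulfan replicate 2 and the highest in dcat vehicle replicate 2, and the 2 treatments overlapped. Busulfan minus vehicle was -10.8 ± 7.1 nt in wt (adjusted p = 0.245) and -10.0 ± 7.2 nt in dcat (adjusted p = 0.338), and neither passed. The wt difference passed only when wt busulfan replicate 1 was left out, at -20.8 nt with an adjusted p of 0.0137. Centring of every library on its own median tail turned the direction, to 12.4 nt in wt and 12.8 nt in dcat, again without passing (adjusted p = 0.285 and 0.329). The mean tail of Pabpc1 was longer than that of 51.2% to 78.5% of transcripts with at least 10 reads in the 4 vehicle libraries and of 63.8% to 86.6% in the 4 busulfan libraries.

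The tails of Pabpc1 were more spread out than those of Tent5c. The standard deviation over reads was 57.1 to 84.6 nt in the 8 libraries for Pabpc1 and 32.7 to 65.4 nt for Tent5c. In every library it was larger for Pabpc1. The window of 120 to 210 nt held 53.8% and 57.0% of Pabpc1 tails in wt mice and 52.4% and 59.7% in dcat mice given vehicle, against 51.4% and 31.7% in wt mice and 38.5% and 46.2% in dcat mice given busulfan. All 4 busulfan libraries were below all 4 vehicle libraries, by 13.8 percentage points on average (exact permutation p = 0.0286, 0.0667 adjusted over 14 measures). The share of all reads in this window was not counted. The window of 30 to 120 nt had group means of 28.3% and 25.6% with vehicle and 36.3% and 34.3% with busulfan in wt and dcat (exact permutation p = 0.0857 for 4 against 4 libraries). Tails of 210 nt or longer made up 15.4% to 22.0% as group means. In wt busulfan the fullest 20-nt bin was that of 60 to 80 nt, with 15 of 100 reads, while in the other groups it was that of 180 to 200 nt. Tent5c minus Pabpc1, the difference of the 2 mean tails within a library, was 23.9 and 11.96 nt in wt mice and -14.1 and 9.44 nt in dcat mice given vehicle, against -11.0 and 1.91 nt in wt mice and -43.7 and -16.2 nt in dcat mice given busulfan. Within a multiplexed library, busulfan minus vehicle of this difference was -34.9 and -10.0 nt in wt and -29.7 and -25.6 nt in dcat, all 4 of them negative. The 2 treatments did not overlap within either genotype, which with 2 against 2 libraries is an exact permutation p of 0.333, the lowest possible. Over both genotypes the 4 busulfan and the 4 vehicle libraries overlapped, with averages of -17.3 and 7.82 nt (exact permutation p = 0.0857, without pairing).

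Pabpc2 showed the largest fold change of the members. It had 46 and 68 reads in wt mice and 37 and 128 in dcat mice given vehicle, against 2 and 5 in wt mice and 4 and 18 in dcat mice given busulfan. In TMM-scaled CPM this was 891 and 972, 1228 and 1022, 26.2 and 47.1, and 64.2 and 196. All 4 busulfan libraries were far below the lowest vehicle library. The log2 fold change with busulfan was -4.56 ± 0.54 in wt (adjusted p = 3.07e-07) and -2.99 ± 0.46 in dcat (adjusted p = 4.41e-05). The dcat change was -4.07 without dcat busulfan replicate 2 and -2.49 without replicate 1, called both times. With so few reads after busulfan, counting error alone left a wide range for the vehicle to busulfan ratio, 24.0 in wt (exact 95% interval 11.3 to 61.2) and 7.48 in dcat (4.78 to 12.3).

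Pabpc6 had the fewest reads of the members and fell in both genotypes. It had 16 and 23 reads in wt mice and 3 and 36 in dcat mice given vehicle, against 1 and 3 in wt mice and 2 and 9 in dcat mice given busulfan. The log2 fold change with busulfan was -3.78 ± 0.69 in wt (adjusted p = 3.83e-05) and -1.71 ± 0.59 in dcat (adjusted p = 0.0155). The dcat call was lost in DESeq2 (-1.87, adjusted p = 0.0754), without dcat vehicle replicate 2 (-0.42, adjusted p = 0.783) and without dcat busulfan replicate 1 (-1.24, adjusted p = 0.104), and the change was -2.80 and called without dcat busulfan replicate 2. In wt it was -4.44 and called without wt busulfan replicate 2. The pooled vehicle to busulfan ratio was 14.4 in wt (exact 95% interval 5.19 to 55.5) and 3.54 in dcat (1.78 to 7.65).

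Tails of these 2 genes could be compared with vehicle only. The mean tail of Pabpc2 was 126 and 146 nt in the wt vehicle libraries and 125 and 147 nt in dcat vehicle, with replicate 2 the longer in both genotypes, and the genotypes differed by -0.36 ± 8.99 nt (adjusted p = 0.989). It was longer than the mean tail of 23.7% to 46.9% of transcripts with at least 10 reads in these 4 libraries. In dcat busulfan replicate 2, the busulfan library with the most Pabpc2 reads, 18 reads averaged 122 nt. The mean tail of Pabpc6 was 97.0 and 127 nt in wt vehicle and 130 nt in dcat vehicle replicate 2, and the other libraries had fewer than 10 reads. Tent5c, Pabpc1, Pabpc2 and Pabpc6 thus stood in this order of mean tail in both wt vehicle libraries and in dcat vehicle replicate 2. In dcat vehicle replicate 1, Tent5c, at 145 nt, was below Pabpc1, at 159 nt. With busulfan, Tent5c was below Pabpc1 in wt replicate 1 and in both dcat libraries.

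In all, 4 of the 4 members fell in wt mice after busulfan, in a comparison where 38.3% of the 2783 transcripts fell. In dcat mice 3 of 4 fell, where 31.4% of all transcripts did. Of the 2 members whose tails were tested with busulfan in limma, 1 was shortened in wt, Tent5c, where 39.5% of 527 transcripts were shortened. In dcat 0 were, where 21.8% of 441 were. The dcat count of 0 from limma became 1, Tent5c, with the replicate block and at an unadjusted p under 0.05. Of the 441 transcripts, 141 were called with the block and 162 had an unadjusted p under 0.05. The methods' t-test, which is called at an unadjusted p of 0.05, called Tent5c in wt and 0 members in dcat, and after adjustment it called 0 in either genotype.

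**Figure D3:**
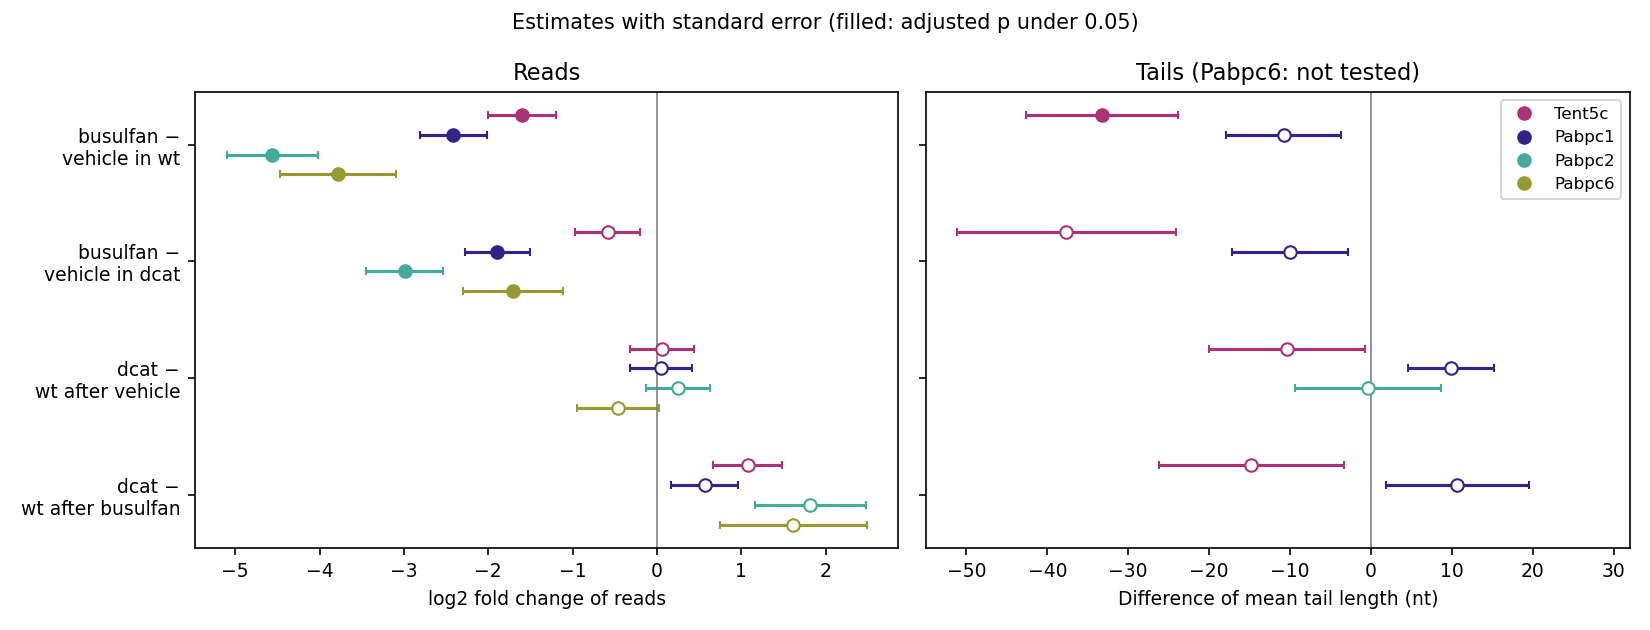
Log2 fold change of reads (left) and difference of mean tail length in nt (right) of the members in the 4 pairwise comparisons, as estimates with their standard errors, filled where the adjusted p was under 0.05. The busulfan estimates of reads are all below 0, from -0.58 to -4.56, while no estimate between genotypes is filled on either side.

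Pabpc1 made up a larger share, and Pabpc2 a smaller share, of the reads of the 3 Pabpc genes after busulfan. These shares compare molecules, since each read is 1 molecule, are not divided by transcript length and do not depend on the scaling of the libraries. Pabpc1 was 65.4% and 72.8% of Pabpc reads in the wt vehicle libraries and 67.7% and 70.7% in dcat vehicle, against 92.5% and 88.7% in wt mice and 81.2% and 79.7% in dcat mice given busulfan. Pabpc2 was 25.7% and 20.3% in wt mice and 29.8% and 22.9% in dcat mice given vehicle, against 5.0% and 7.04% in wt mice and 12.5% and 13.5% in dcat mice given busulfan. For both genes the 4 busulfan libraries did not overlap the 4 vehicle libraries (exact permutation p = 0.0286, 0.0667 adjusted over 14 measures). Pabpc6 held 2.42% to 8.94% with vehicle and 2.50% to 6.77% with busulfan, which overlap (exact permutation p = 0.429). Within busulfan, the wt libraries had more Pabpc1 and less Pabpc2 than the dcat libraries, without overlap, but here an exact permutation test of 2 against 2 libraries gives p = 0.333 at best. The Wilson 95% intervals of the Pabpc1 share overlapped there, from 79.3% to 97.4% over the 2 wt libraries and from 64.7% to 91.1% over the 2 dcat libraries.

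**Figure D4:**
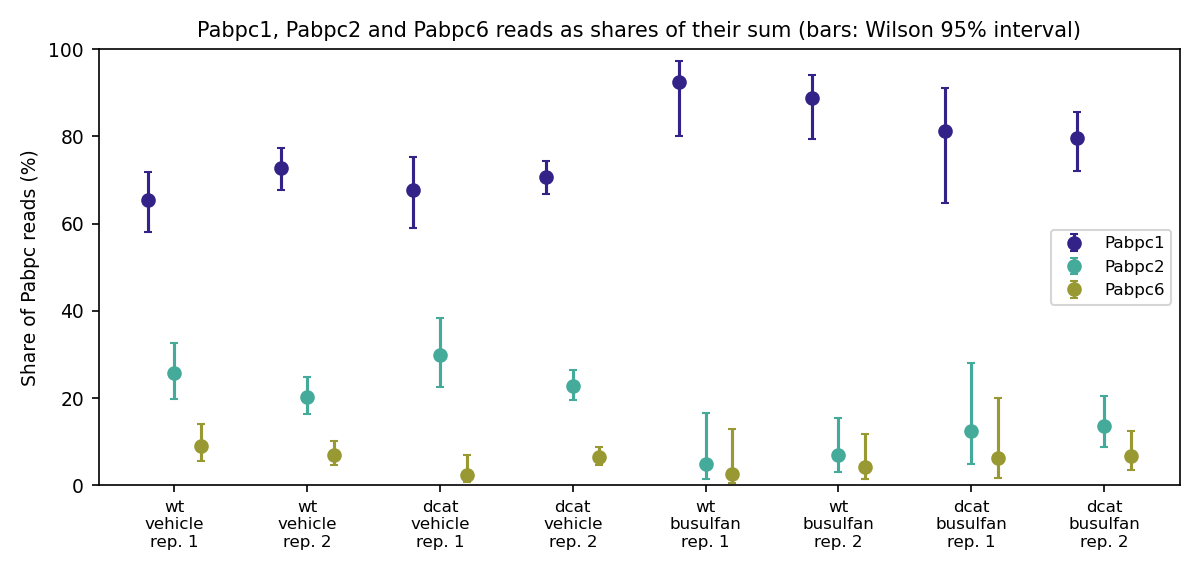
Reads of Pabpc1, Pabpc2 and Pabpc6 as percent of their sum in each library, with bars for the Wilson 95% interval, which covers counting error only. Pabpc1 lies between 65.4% and 72.8% with vehicle and between 79.7% and 92.5% with busulfan, and Pabpc2 lies below 14% in the 4 busulfan libraries.

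Between the genotypes no member passed in any comparison. After vehicle, the log2 differences of dcat minus wt were 0.06 ± 0.38 for Tent5c, 0.05 ± 0.36 for Pabpc1, 0.25 ± 0.38 for Pabpc2 and -0.46 ± 0.48 for Pabpc6, all with an adjusted p of 1.00, in a comparison where 0% of the 2783 transcripts passed in edgeR, 65 of them having an unadjusted p under 0.05, and 0 in DESeq2. The direction for Tent5c and Pabpc1 turned under other settings (-0.01 for both in DESeq2). The mean tails differed by -10.4 ± 9.6 nt for Tent5c, 9.87 ± 5.33 nt for Pabpc1 and -0.36 ± 8.99 nt for Pabpc2, each with an adjusted p of 0.989, where 0.139% of 720 transcripts passed. The Tent5c difference rested on dcat vehicle replicate 1 and was 3.96 nt without it. In vehicle-treated testis the levels of the 4 members and the mean tails of Tent5c, Pabpc1 and Pabpc2 were therefore not told apart between the genotypes at this depth and number of mice. The tails of Pabpc6 were not tested in limma, since dcat vehicle replicate 1 had 3 reads of it. Mean tails of Pabpc2 and Pabpc6 were among the 14 measures of the permutation tests, some of them from as few as 1 read.

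After busulfan, all 4 members had higher estimates in dcat than in wt, and 0 passed in edgeR or in DESeq2. In edgeR 2 of them, Tent5c and Pabpc2, had an unadjusted p under 0.05, as did 564 of the 2783 transcripts. The log2 difference was 1.07 ± 0.41 for Tent5c (adjusted p = 0.119), 0.57 ± 0.40 for Pabpc1 (0.482), 1.82 ± 0.66 for Pabpc2 (0.100) and 1.61 ± 0.87 for Pabpc6 (0.319), in a comparison where 5.82% of the 2783 transcripts passed and the median over all transcripts was 0.20. Tent5c and Pabpc2 passed when dcat busulfan replicate 1 was left out, at 1.43 (adjusted p = 0.0196) and 2.31 (adjusted p = 0.0137). The 2 dcat busulfan libraries differed more from each other than the 2 wt busulfan libraries did for all 4 members, replicate 2 having the higher level of all 4 members, and it was also replicate 2 that had the higher sum of late spermatid markers. Without dcat busulfan replicate 2, the Pabpc1 difference was -0.37. The mean tails differed by -14.8 ± 11.4 nt for Tent5c (adjusted p = 0.830) and 10.6 ± 8.8 nt for Pabpc1 (adjusted p = 0.855), where 1.52% of 1188 transcripts passed. For Tent5c the 2 multiplexed libraries gave different answers, -31.7 nt in the first and 2.19 nt in the second.

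The interaction of genotype and busulfan, the difference between the 2 responses, was called for none of the members. For reads it was 2.07 ± 1.00 for Pabpc6 (adjusted p = 0.298) and 1.57 ± 0.76 for Pabpc2 (adjusted p = 0.308), beside the values of Tent5c and Pabpc1 above, and 0.323% of the 2783 transcripts passed. Of the 4 members only Pabpc6 and Pabpc2 had an unadjusted p under 0.05, as did 451 of the 2783 transcripts. For tails it was -4.39 ± 16.9 nt for Tent5c (adjusted p = 0.957) and 0.78 ± 10.5 nt for Pabpc1 (adjusted p = 0.973), where 0.885% of 339 transcripts passed.

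Transcripts with the level pattern most like that of a member were found by the Pearson correlation of log2 TMM-scaled CPM over the 8 libraries, among 2036 other transcripts with a mean of at least 10 reads. The 5 nearest to Tent5c were Zdbf2 (r = 0.995), Odf2 (0.994), Cdrt4 (0.990), Tsacc (0.988) and Prm1 (0.986). Odf2, an outer dense fiber protein of the sperm tail, and Prm1, a protamine of the sperm head, stood on the list of late spermatid markers. The 5 nearest to Pabpc1 were Acyp1, Fabp9, Ppm1d, Gtf2a1l and Pgam2, all with r = 0.993, and none of them was on a list used here. The mean of log2 levels of Prm1 after busulfan was 9.81 in wt mice and 12.31 in dcat mice, whereas that of Acyp1 was 6.65 and 6.93. These 8 points share the treatment shift, so the correlations are a description with no p.

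For mean tails, 338 other transcripts had at least 10 reads in every library. The nearest to Tent5c were Rpl36 (r = 0.989), Gstm5 (0.971), Cox7a2 (0.969), Atp1b3 (0.955) and Rpl23 (0.952), among them 2 ribosomal protein genes, a glutathione transferase and a subunit each of cytochrome c oxidase and of the sodium pump. The group means of Gstm5 ran from 170 nt in wt vehicle to 129 nt in dcat busulfan. The nearest to Pabpc1 were Atp6v1g1 (r = 0.924), Tnp1 (0.868), Rpl7 (0.795), Tnp2 (0.795) and Rpl41 (0.794). Tnp1 and Tnp2 encode the transition proteins that replace histones in elongating spermatids, and their group means with busulfan were 129 and 127 nt in wt and 137 and 145 nt in dcat.

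Other genes that lengthen, bind or shorten tails were taken from 8 lists with 94 genes. Of these, 16 had a transcript in the table, and none of Tent5a, Tent5b, Tent5d, Fndc3a and Fndc3b, the TENT5 family and the endoplasmic reticulum proteins that anchor TENT5C, was among them. With busulfan, 7 of the 16 fell and 4 rose in wt, where 38.3% of all transcripts fell and 35.4% rose. In dcat 7 of the 16 fell and 3 rose, where 31.4% of all transcripts fell and 31.3% rose. The median log2 change of the 16 was -1.11 in wt and -0.52 in dcat, beside 0.09 and 0.14 over all transcripts tested.

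The genes that fell in both genotypes included Papolb, the testis-specific cytoplasmic poly(A) polymerase, with -4.33 ± 0.68 in wt and -2.29 ± 0.59 in dcat. Without dcat busulfan replicate 2 the dcat change was -3.90, and without wt busulfan replicate 2 the wt change was -5.54. Papolb was the 1 of 10 other poly(A) and terminal nucleotidyl polymerases in the table. Cpeb2, which binds the cytoplasmic polyadenylation element and was the 1 of 4 CPEB genes in the table, had 4 and 9 reads in wt mice and 10 and 20 in dcat mice given vehicle. After busulfan it had 0 reads in both wt mice and 0 and 1 in the dcat mice. It fell in both genotypes (adjusted p = 0.000388 and 0.000261). Of 6 nuclear and other poly(A)-binding proteins 2 were in the table and moved in opposite directions. Pabpn1, the nuclear poly(A)-binding protein, had 16 and 14 reads in the wt mice given vehicle and 0 and 3 in those given busulfan. It fell in wt with a log2 change of -3.81 ± 0.79, a size that so few reads do not fix, since it was -7.19 without wt busulfan replicate 2, which leaves 0 busulfan reads, and -3.07 without replicate 1. In dcat its change was -1.61 ± 0.62, which was -3.74 without dcat busulfan replicate 2 and a call that was lost in DESeq2 (adjusted p = 0.0626), without dcat vehicle replicate 2 (0.127) and without dcat busulfan replicate 1 (0.189). Ncl, nucleolin, rose by 2.26 ± 0.68 in wt, a call lost in DESeq2 (adjusted p = 0.0775). In dcat mice Ncl had 0 and 1 reads with vehicle and 8 and 20 with busulfan, and it rose (adjusted p = 0.000275), with a fold that so few vehicle reads do not fix.

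Of 17 genes whose proteins contact PABPC or work beside it, 3 were in the table, of which 1 rose in wt and 0 passed in dcat. Eif4g2, a translation initiation factor related to eIF4G, rose by 0.93 ± 0.39 in wt (adjusted p = 0.0340), a call lost in DESeq2 (0.153), without wt vehicle replicate 1 (0.0506) and without wt busulfan replicate 2 (0.196). Paip2, an inhibitor of PABPC, had -0.96 ± 0.47 in wt and 0.00 ± 0.59 in dcat, and Eif4e, the cap-binding protein, -0.87 ± 0.45 and -0.31 ± 0.43, none of which passed. The tails of Paip2 were shortened in wt by a difference of -58.4 ± 12.5 nt (adjusted p = 0.00192), from 165 to 106 nt, a difference of -35.2 nt with an adjusted p of 0.0633 after centring.

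Of 22 deadenylases and their adaptors only the adaptors Tob1, Btg1 and Btg3 were in the table. Btg1 fell in both genotypes, with -1.78 ± 0.47 in wt and -1.13 ± 0.45 in dcat, and Btg3 rose by 1.85 ± 0.56 in wt (3.51 without wt vehicle replicate 2) and by 1.66 ± 0.57 in dcat, while Tob1 had 0.56 ± 0.55 and 1.34 ± 0.62 and did not pass. The dcat calls were weak, since Btg1 lost its call in DESeq2 (adjusted p = 0.0676) and without any 1 of dcat vehicle replicate 2, dcat busulfan replicate 1 and dcat busulfan replicate 2 (0.0720 to 0.201), and Btg3 lost its call in DESeq2 (0.131) and without dcat vehicle replicate 2 (0.315). Without wt busulfan replicate 2 the wt call of Btg3 was lost too (0.0575). Of 16 nuclear cleavage and polyadenylation factors, Nudt21 and Sympk were in the table and neither passed.

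The Y-box proteins package stored mRNAs in spermatids. Of 14 storage proteins 4 were in the table, of which the Y-box genes Ybx1, Ybx2 and Ybx3 fell and Lsm14a rose in both genotypes, beside the shares of all transcripts that fell (38.3% in wt and 31.4% in dcat) and rose (35.4% and 31.3%). The log2 changes in wt and dcat were -1.94 ± 0.37 and -1.22 ± 0.36 for Ybx1, -4.43 ± 0.61 and -2.33 ± 0.50 for Ybx2, and -4.50 ± 0.58 and -1.58 ± 0.47 for Ybx3. Without dcat busulfan replicate 2 the dcat changes of Ybx2 and Ybx3 were -3.99 and -2.78, and without wt busulfan replicate 2 the wt change of Ybx3 was -5.19. Lsm14a, a protein of mRNA storage granules, had 0 and 1 reads with vehicle and 7 and 10 with busulfan in wt (adjusted p = 0.00476). In dcat it had 1 and 6 reads with vehicle and 10 and 11 with busulfan. Its log2 change in dcat was 1.57 ± 0.61 (adjusted p = 0.0275 in edgeR). The calls of Lsm14a were not followed under the other settings. Between the genotypes after busulfan 1 of the 16 listed genes passed, Ybx3, where 5.82% of all transcripts did. Ybx3 then had 3 and 9 reads in wt mice and 10 and 50 in dcat mice, a log2 difference of 2.47 ± 0.62 (adjusted p = 0.0215) that was lost without each of wt busulfan replicate 1 (adjusted p = 0.244), wt busulfan replicate 2 (0.108) or dcat busulfan replicate 2 (0.754). The interaction for Ybx3 was 2.92 ± 0.76 (adjusted p = 0.0535). Without dcat vehicle replicate 2, Papolb, Ybx1, Ybx2 and Ybx3 did not pass in dcat (adjusted p = 0.579, 0.201, 0.0564 and 0.526), and without dcat busulfan replicate 1 Ybx1 (0.0544) and Ybx3 (0.0532) did not. The tails of Ybx1 were shortened with busulfan in wt (-34.2 ± 7.1 nt, adjusted p = 0.00153) and in dcat (-53.0 ± 8.5 nt, adjusted p = 0.00191), and those of Ybx3 in dcat (-45.2 ± 13.8 nt, adjusted p = 0.0360). After centring, the wt difference of Ybx1 was -11.0 nt and the dcat difference of Ybx3 -22.4 nt, and neither passed (adjusted p = 0.296 and 0.230). Of the 16 listed genes, 4 were tested for tails in each genotype, of which 2 were shortened in wt, where 39.5% of all transcripts tested were, and 2 in dcat, where 21.8% were.

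**Figure D5:**
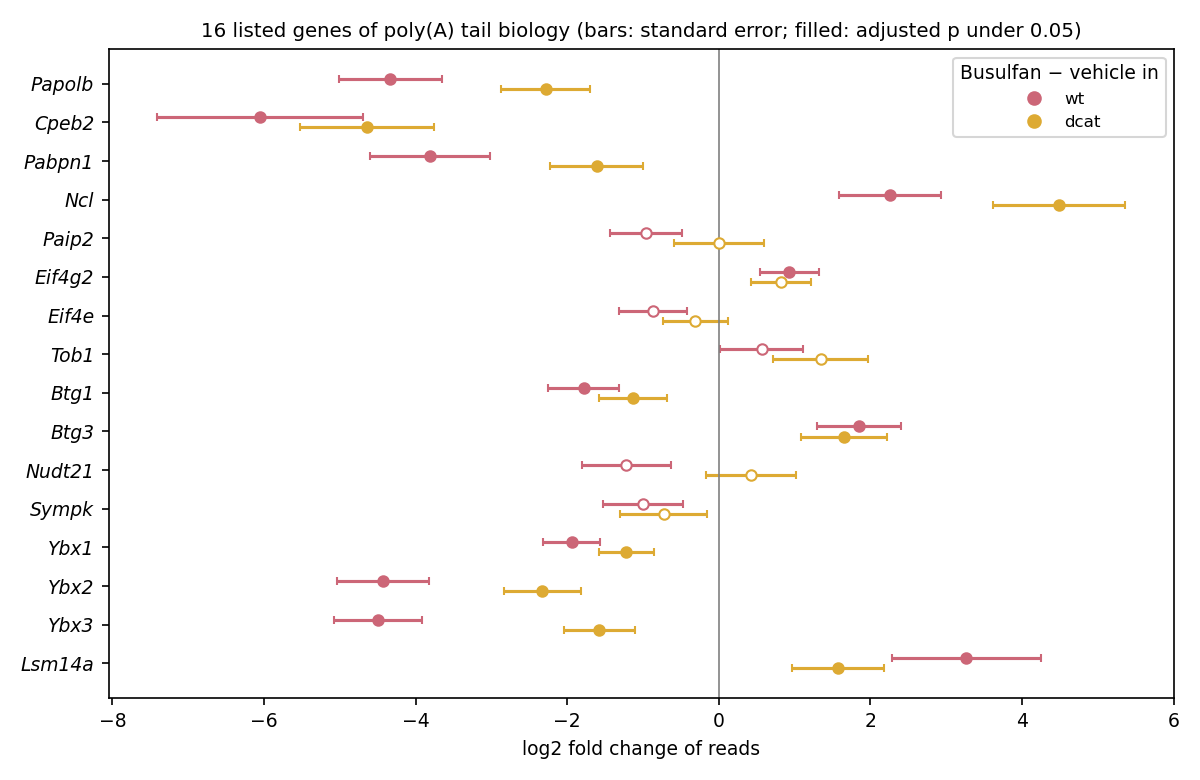
Log2 fold change of reads with busulfan in wt and in dcat mice for the 16 listed genes of poly(A) tail biology in the table, with bars for the standard error and filled points where the adjusted p was under 0.05. Papolb, Cpeb2, Pabpn1, Ybx2 and Ybx3 lie furthest below 0 in wt, and Ncl, Btg3 and Lsm14a lie above 0 in both genotypes. The distances from 0 of Cpeb2 in both genotypes, Ncl in dcat and Lsm14a in wt rest on 0 or 1 reads in one of the treatments and are not measured folds, and that of Pabpn1 in wt rests on 0 and 3 reads with busulfan.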

How the data were processed

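RNA of whole testis from 8 mice (4 groups of 2) was sequenced by Nanopore direct RNA sequencing. Per the labels, 2 multiplexed libraries were made, each with 1 mouse of every group, so replicate numbers pair the samples. CPM are reads scaled to 1e6 per library. The deviations between replicates correlated between groups at r = -0.13 to 0.25 over 2037 transcripts for log2 CPM and at 0.01 to 0.06 over 339 transcripts for mean tails. The authors mapped reads to mouse transcripts (GENCODE on GRCm38) with minimap2 (version 2.20-r1061 in the submitters' processing notes; the methods name another), demultiplexed them with Deeplexicon and estimated tails with Nanopolish. The deposited count table holds whole reads per transcript, for transcripts that reached 10 reads in each replicate of 1 condition or more. The deposited tail table holds 1 estimated length in nt per read, in numbers equal to the counts. The authors' tables of comparisons, with fold changes and p-values, were not used.

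Counts of all transcripts were tested with edgeR 4.0.16 (TMM, quasi-likelihood, 4 groups, no block), two-sided, with Benjamini-Hochberg adjustment, and mean tails per transcript and library with limma 3.58.1 (trend on log2 reads, at least 10 reads in each library of the comparison). Standard errors of log2 fold changes were taken as the fold change over the root of the F statistic and are approximate. Single values were compared by exact permutation over libraries. R 4.3.3 and DESeq2 1.42.0 were used, and the fits were tested on simulated data. Reference coordinates and sequences came from GENCODE vM21, GRCm38.p6, in which 2738 of the 2783 transcripts were found. The methods' t-test on mean tails, an alternative, was called at their unadjusted threshold of 0.05 and after adjustment. Alternatives covered scaling, tool, filters, centring, weights, replicate block, pooling per gene and leaving out each library. Named were all members, the 5 transcripts nearest to Tent5c and to Pabpc1 in level (prior count 2) and in tail, the 3 most read genes of each list and every listed gene called between genotypes; Lsm14a falls outside this rule and was named after its values were seen. The members and lists were chosen with earlier results of these data known. Depth ran from 29574 to 129074 reads per library, so 3 reads, the limit that a count of 0 allows, came to 23.2 to 101 CPM. Intervals cover counting error only.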

Additional observations from a re-analysis of the deposited data

How the results depend on the processing

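With the multiplexed library as a replicate block, Tent5c tails in dcat passed (-37.7 nt, adjusted p = 0.00616), so that 1 member in place of 0 was called there, and the block changed no other call of a member. Weights by reads did the same (1 member, -41.1 nt, adjusted p = 0.00432). In wt the count of shortened members, 1, became 0 after centring of libraries (-10.1 nt for Tent5c), in the methods' t-test after adjustment (-33.3 nt, adjusted p = 0.106, while at the unadjusted threshold of the methods it stayed 1) and at a minimum of 20 reads, where Tent5c was not testable. Centring turned the Pabpc1 differences in wt to 12.4 nt, that in dcat to 12.8 nt and its interaction to -0.0263 nt. The Pabpc2 tail difference between genotypes after vehicle was 2.75 nt for medians, 3.85 nt with weights and 0.0239 for log2 lengths. For reads, the vehicle difference between genotypes was -0.00866 for Tent5c in DESeq2, and -0.00962 in DESeq2 and -0.00831 with RLE scaling for Pabpc1. With busulfan in dcat, Tent5c was at -0.81 with RLE scaling and called, and Pabpc6 at -1.87 in DESeq2 and not called.

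Leaving out 1 library at a time moved the log2 difference between genotypes after vehicle from -0.11 to 0.29 for Tent5c and from -0.18 to 0.50 for Pabpc1. After busulfan it ranged from 0.53 to 1.43 for Tent5c, from -0.37 to 1.09 for Pabpc1 and from 0.73 to 2.32 for Pabpc2, and 0 to 2 members were called. The change with busulfan in dcat ranged from -1.13 to -0.24 for Tent5c, from -2.83 to -1.37 for Pabpc1, from -4.07 to -2.49 for Pabpc2 and from -2.80 to -0.42 for Pabpc6, with 2 to 4 members called, and the Pabpc1 interaction from -0.42 to 1.04. For tails, the vehicle difference between genotypes ranged from -24.7 to 3.96 nt for Tent5c and from -11.4 to 10.7 nt for Pabpc2. The wt busulfan difference ranged from -36.9 to -29.7 nt for Tent5c and from -20.8 to -0.747 nt for Pabpc1, with 0 to 2 members called. The dcat difference of Tent5c ranged from -52.0 to -23.3 nt, with 0 to 1 called. The interaction ranged from -18.7 to 9.95 nt for Tent5c and from -9.26 to 10.8 nt for Pabpc1.

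Over all transcripts, the 1746 read calls with busulfan in dcat were 1095 in DESeq2 (49.9% and 35.7% of them higher) and 712 without dcat vehicle replicate 2. The 162 calls between genotypes after busulfan were 47 in DESeq2 and 7 to 360 with 1 library left out, and in a fit of these 4 libraries alone 71.1% of the calls were higher in dcat in place of 92.6%. The 9 interaction calls were 68 with RLE scaling, 36 after a filter on low counts, 34 per gene, 123 with the block and 3 to 257 with 1 library left out. The 212 tail calls in wt were 95 after centring (55.8% of them longer in place of 1.89%), 121 at 20 reads and 0 in the t-test after adjustment (170 of 527 at an unadjusted p of 0.05, the methods' threshold). The 96 in dcat were 64 after centring (64.1% longer), 54 at 20 reads, 50 without the trend, 161 with weights, 0 in the t-test after adjustment (89 of 441 unadjusted) and 52 without dcat busulfan replicate 1. The 18 between genotypes after busulfan were 9 at 20 reads, 32 on the log2 scale, 28 for medians, 7 without the trend, 27 with the block and 0 in the t-test after adjustment (81 of 1188 unadjusted). The 1 after vehicle was 0 on the log2 scale, for medians, without the trend, with the block and in the t-test after adjustment (28 of 720 unadjusted), and 9 without dcat vehicle replicate 2. The 3 of the interaction were 0 to 8. The cause of these shifts was not tested. The comparisons of 4 busulfan with 4 vehicle libraries and the Pabpc shares were added after the data were seen. With 2 mice per group and as few as 1 read of a member per library, small differences were not detectable.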
